A study of Arabidopsis thaliana with 4 samples.

Results

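The genes described here are those whose symbol marks a calcium sensor or a calcium-dependent kinase: calmodulins (CAM), calmodulin-like proteins (CML), calcium-dependent protein kinases (CPK or CDPK), calcineurin B-like sensors (CBL) and the kinases that interact with them (CIPK). Membership was set by symbol, with the further condition that a probe set was assigned to exactly that gene. Earlier results of these data were known when this set of genes was chosen. The RefSeq gene table holds 81 Arabidopsis genes with such symbols. Of these, 7 had a probe set of 1 gene, out of the 13356 genes measured by name, and each of the 7 had a single probe set. All 7 are calmodulin-like genes: CML23, CML30, CML37, CML38, CML41, CML42 and CML43. The other 74, including all 55 kinases and all 9 genes each with CAM and CBL symbols, were not analysed here, so the values below concern calcium sensors of the calmodulin-like type and no kinase.

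Root transcripts of Arabidopsis thaliana (accession Col-0, seedlings 3 weeks old) were read on 4 one-colour Affymetrix arrays. Both groups, low and normal oxygen, held 2 biological replicates, and 5 seedlings from a single dish were pooled for each. All plants spent 24 hours in liquid MS medium with 3% sucrose and then 5 hours in foil-covered canisters. The low oxygen canisters were flushed with gas holding 0.1% oxygen and sealed, whereas the normal oxygen canisters stayed unsealed, so flushing, sealing and low oxygen cannot be told apart. The arrays carry log2 expression values made by RMA, in which a difference of 1 is a factor of 2.

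Calcium ions act in plant cells as a second messenger: stimuli such as touch, cold, pathogens or lack of oxygen raise calcium in the cytosol for a short time. Calmodulin-like proteins bind these ions through paired EF-hand loops, change shape and then bind other proteins, and they have no catalytic part of their own. Calcium-dependent protein kinases join an EF-hand domain and a kinase in a single protein, whereas CBL sensors act by binding CIPK kinases. CML38 is a known core hypoxia gene of Arabidopsis, and its product is found in stress granule-like bodies of oxygen-deprived cells.

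Of the 7 genes, 2 were higher and 2 lower at low oxygen, and 3 did not pass (limma with Benjamini-Hochberg adjustment over all 22746 probe sets at 0.05). CML38 rose by 5.37 and CML37 by 2.08 on the log2 scale, and CML43 and CML42 fell by 0.65 and 0.61. CML23, CML30 and CML41 had changes of -0.21, 0.15 and -0.08. Over all probe sets 33.4% passed, 15.8% as higher and 17.6% as lower, as did 30.5% of those with 1 gene, so calls of this kind were common on these arrays. The median change was -0.08 over the 7 genes and -0.002 over all probe sets. Only 4 of the 7, CML23, CML38, CML42 and CML43, reached a group mean of 6 in either group, and RMA values carry no detection call for the lower ones.

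**Figure D1:**
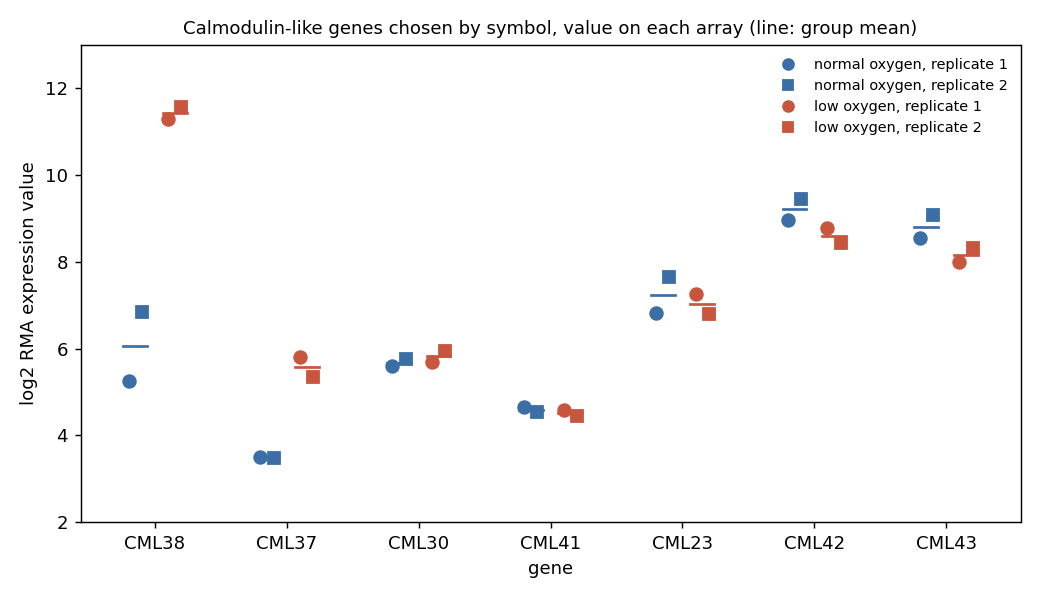
Log2 RMA expression value (vertical axis) of the 7 calmodulin-like genes chosen by symbol (horizontal axis) on each of the 4 arrays, with circles for replicate 1, squares for replicate 2 and short lines for group means. CML38 stands above 11 on both low oxygen arrays and below 7 on both normal oxygen arrays, and the 2 groups overlap for CML23, CML30 and CML41.

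The 2 genes that rose are sisters in sequence and belong to the stress-induced branch of the family. CML38 (AT1G76650, chromosome 1) stood at 5.26 and 6.85 on the normal oxygen arrays and at 11.29 and 11.57 on the low oxygen arrays. The groups were far apart, but the normal oxygen replicates were not alike, with replicate 2 higher. The difference between the groups was 5.37 (SE 0.45, 95% interval 4.29 to 6.46, limma adjusted p = 2.1e-04), which is 41.4-fold. It ranked as rise number 19 among the 22746 probe sets. Its size depended on the normal oxygen array used: it was 6.17 without replicate 2 of that group and 4.58 without replicate 1. With a single normal oxygen array left, such a fit cannot measure the spread of that group. Its SE, 0.157 in both cases, therefore leaves out the difference between the normal oxygen replicates. The interval with all 4 arrays is also narrower than the values of CML38 alone would give. In limma the spread of each gene is drawn toward that of all probe sets, and that of CML38 was wide (SD 1.13 at normal oxygen).

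CML37 (AT5G42380, chromosome 5), a positive regulator of jasmonate responses to herbivores, was at 3.51 and 3.48 at normal oxygen and at 5.81 and 5.34 at low oxygen. Both low oxygen arrays were higher, yet all 4 values lay below 6. The difference was 2.08 (SE 0.16, 95% interval 1.70 to 2.46, adjusted p = 1.4e-04), and no fold is given because the normal oxygen values lie close to the lowest value in the table, 2.95. Here the replicates at normal oxygen differed by 0.04 and those at low oxygen by 0.46, the reverse of the pattern in CML38.

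The 2 genes that fell changed far less. CML43 (AT5G44460, chromosome 5), a gene known from roots and from pathogen responses, was at 8.55 and 9.07 at normal oxygen and at 8.00 and 8.31 at low oxygen. Both low oxygen arrays lay under both normal oxygen arrays, by 0.24 at the closest pair. The change was -0.65 (SE 0.19, 95% interval -1.11 to -0.20, adjusted p = 0.0380), a 1.57-fold difference. The call ended without normal oxygen replicate 2 (-0.39, adjusted p = 0.1129) and without low oxygen replicate 1 (-0.50, adjusted p = 0.2096). Without low oxygen replicate 2 it ended too, with a change larger in size (-0.81, adjusted p = 0.0675), whereas without normal oxygen replicate 1 it passed (-0.91, adjusted p = 0.0032).

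CML42 (AT4G20780, chromosome 4), which in leaves limits herbivore defence and affects trichome branching, was at 8.96 and 9.45 at normal oxygen and at 8.77 and 8.42 at low oxygen. The groups did not overlap, but the closest pair of arrays differed by only 0.19. Its change was -0.61 (SE 0.19, 95% interval -1.07 to -0.15), with an adjusted p of 0.0493 that lay just inside the threshold. The call ended without normal oxygen replicate 2 (-0.36, adjusted p = 0.1626) and without low oxygen replicate 2 (-0.44, adjusted p = 0.2548). It also ended without low oxygen replicate 1, although the change was then larger in size (-0.78, adjusted p = 0.0671), as it was without normal oxygen replicate 1 (-0.86, adjusted p = 0.0054).

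The other 3 genes had overlapping groups. CML23 (AT1G66400, chromosome 1), a close relative of the touch-induced gene TCH2, was at 6.82 and 7.65 at normal oxygen and at 7.25 and 6.80 at low oxygen (change -0.21, 95% interval -0.87 to 0.46, adjusted p = 0.6587). The wide interval reflects replicates that differed in both groups, and the sign of the change depended on the arrays used. Without normal oxygen replicate 1 it was -0.62 and passed (adjusted p = 0.0385), and without normal oxygen replicate 2 it was 0.214 (adjusted p = 0.4997).

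CML30 (AT2G15680, chromosome 2), which encodes a mitochondrial member of the family, was at 5.59 and 5.75 at normal oxygen and at 5.70 and 5.94 at low oxygen. Its change of 0.15 had an interval from -0.15 to 0.44 (adjusted p = 0.4412). CML41 (AT3G50770, chromosome 3), a sensor of plasmodesmata that acts in callose closure, was at 4.65 and 4.54 at normal oxygen and at 4.59 and 4.44 at low oxygen. Its change of -0.08 had an interval from -0.33 to 0.18 (adjusted p = 0.6759). For both genes these intervals leave out a change of 1 in either direction, although both stood below 6 on all 4 arrays.

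The difference between the normal oxygen replicates of CML38, 1.59, was the widest of all 22746 probe sets, among which the median was 0.12. CML23 differed by 0.84 in the same direction, a gap that 50 probe sets exceeded. For CML43 and CML42 replicate 2 was higher by 0.52 and 0.50, gaps exceeded by 2.19% and 2.55% of probe sets. These 4 genes thus lay higher in normal oxygen replicate 2, while CML30 was higher by 0.16, CML41 lower by 0.12 and CML37 lower by 0.04. At low oxygen the same genes did not move together, since replicate 2 was higher for CML38, CML30 and CML43 and lower for CML23, CML37, CML41 and CML42. What set the normal oxygen pools apart was not tested.

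A wider view came from a list of 50 calmodulin-like loci made from textbook knowledge, of which 35 were measured. Besides the 7 genes above it holds 28 loci that the tables name by locus code alone. RefSeq lists CML39 as a synonym both of AT1G76640 and of CML37 (AT5G42380), and CML39 stands here for AT1G76640 only. Their place in the family rests on that list, and no role is given for those without a name. Of the 28, 5 were higher, 5 lower and 18 did not pass. The share called was 35.7%, against 33.4% of all probe sets and 30.5% of those with 1 gene. Their median change was 0.0004, and 17 of them reached a group mean of 6.

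The locus next to CML38 on chromosome 1 was among those that rose. CML39 (AT1G76640), known for a part in seedling establishment, was at 6.04 and 6.80 at normal oxygen and at 8.80 and 9.05 at low oxygen. The change was 2.501 (SE 0.24, adjusted p = 3.5e-04), a 5.66-fold difference, less than that of CML38. As in CML38, normal oxygen replicate 2 was the higher, here by 0.76, which 83 probe sets exceeded. Of the 4 pairs of listed loci that neighbour each other in the RefSeq table, this was the only pair with both measured. The probe sequences were not used here, so signal shared between these related genes was not tested.

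Among the other rises, AT3G01830 went from 3.71 and 3.78 to 6.59 and 6.81 (change 2.96, SE 0.11, adjusted p = 1.2e-05). Its replicates differed by 0.07 at normal oxygen and by 0.22 at low oxygen, and its rise came second to that of CML38 among the 35. As in CML37, the normal oxygen values lie close to the lowest value in the table, 2.95. AT1G21550 went from 4.75 and 4.54 to 5.63 and 5.84 (change 1.09, SE 0.12, adjusted p = 7.4e-04). AT2G41090 and AT3G59440 rose by 0.55 and 0.46 (adjusted p = 0.0111 and 0.0450) and, like AT1G21550, stayed below 6 on all arrays. The call of AT2G41090 was lost without low oxygen replicate 1 (0.42, adjusted p = 0.0650). That of AT3G59440 ended without low oxygen replicate 1 (0.36, adjusted p = 0.2221), without low oxygen replicate 2 (0.55, adjusted p = 0.0861) and without normal oxygen replicate 1 (0.29, adjusted p = 0.1761).

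The largest fall was that of AT3G10190, from 7.75 and 8.02 at normal oxygen to 5.57 and 5.46 at low oxygen. This change of -2.37 (SE 0.12, adjusted p = 3.0e-05) was a 5.17-fold difference between clearly separate groups. AT1G73630 went from 7.22 and 7.84 to 6.39 and 6.28 (change -1.20, SE 0.20, adjusted p = 0.0038), again with normal oxygen replicate 2 the higher. AT1G24620 went from 6.06 and 6.38 to 5.00 and 5.19 (change -1.12, SE 0.14, adjusted p = 0.0011). Smaller falls were those of AT1G12310, from a mean of 11.17 to one of 10.54, and AT3G03000, from 8.19 to 7.59 (adjusted p = 0.0045 and 0.0080). Without low oxygen replicate 2, AT3G03000 no longer passed (-0.55, adjusted p = 0.0610). The 2 low oxygen values of AT1G12310 were identical in the deposited table, as they were for 21 probe sets.

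**Figure D2:**
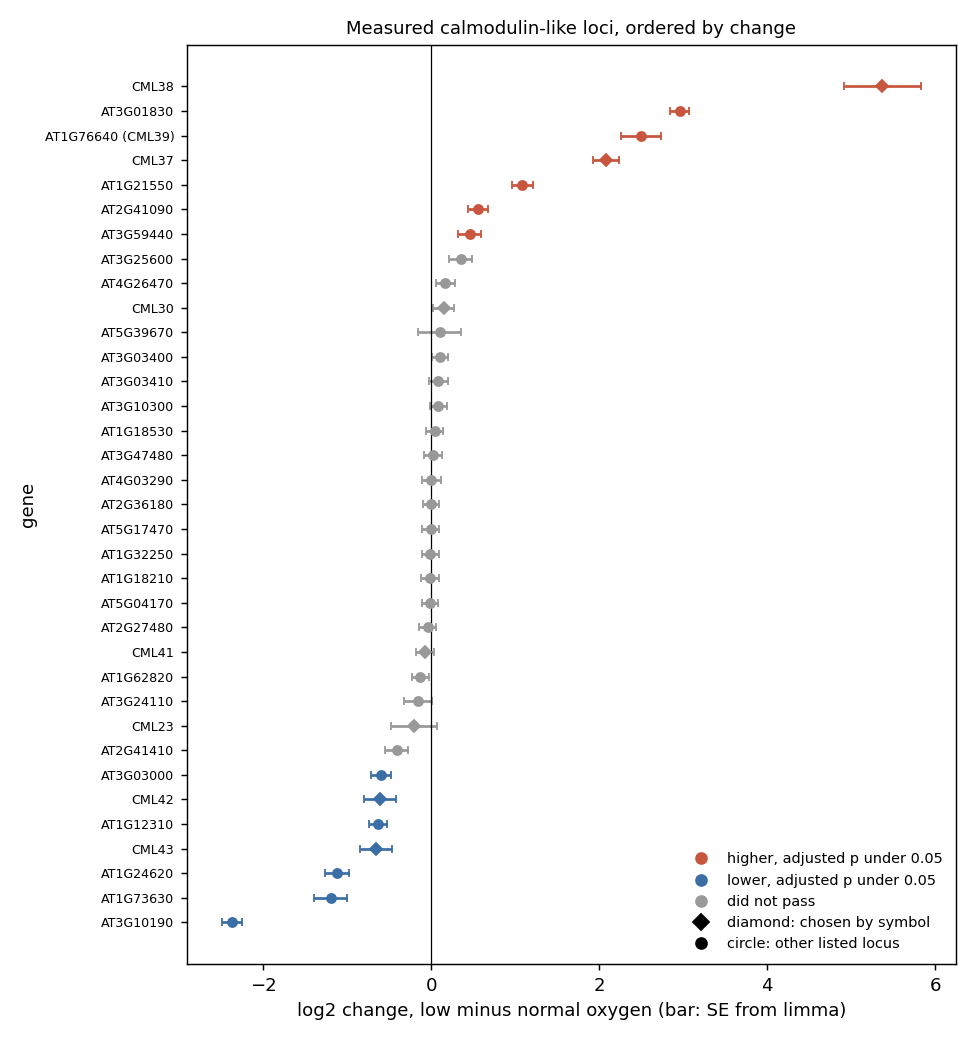
Log2 change, low minus normal oxygen (horizontal axis), of the 35 measured calmodulin-like loci (vertical axis), ordered by change, with diamonds for the 7 chosen by symbol, circles for the other 28 and the SE from limma as bars. CML38 lies at 5.37 and AT3G10190 at -2.37, and the 21 loci that did not pass lie between -0.41 and 0.35.

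The 18 other loci that did not pass had changes between -0.41 and 0.35. Of these, 8 stood below 6 on all 4 arrays, with changes between -0.01 and 0.10. Others were well above that level and differed little: AT1G18210 was at 10.53 and 10.37 at normal oxygen and at 10.47 and 10.40 at low oxygen (adjusted p = 0.9440). AT5G04170 was at 9.65 and 9.63 and at 9.65 and 9.60 (adjusted p = 0.9190). AT2G41410 had a change of -0.41 that just missed the threshold (SE 0.14, adjusted p = 0.0618) and passed under 4 of its 10 alternatives. These 3 loci were picked as examples after their values were seen.

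Over all 35 loci, 7 were higher, 7 lower and 21 did not pass. This is 40% called, against 33.4% of all probe sets and 30.5% of those with 1 gene. Without CML38 the share was 38.2%. The groups did not overlap for 20 of the 35, against 64.5% of all probe sets and 8400 of the 13513 with 1 gene. At least 2-fold changes were reached by 5 higher and 3 lower of the 35 loci. Of all 22746 probe sets 1174 higher (5.16%) and 1211 lower (5.32%) reached them. Of the 13513 with 1 gene 607 higher and 622 lower did. The median size of the change, either direction, was 0.17 for the 35 loci, 0.18 for probe sets of 1 gene and 0.21 for all probe sets. Normal oxygen replicate 2 was the higher for 25 of the 35, or 71.4%, against 45.7% of all probe sets. The gap passed 0.5 for 6 of the 35, CML38, CML23, CML43, CML39, AT5G39670 and AT1G73630, each time with replicate 2 higher. Over all probe sets it passed 0.5 for 571, or 2.51%, with replicate 2 higher in 375 of them. At low oxygen replicate 2 was the higher for 11 of the 35, or 31.4%, against 42.1% of all probe sets. No low oxygen gap of the 35 loci passed 0.5, and the widest was 0.496. The loci share arrays and pools and are not independent replicates, so these shares are descriptions.

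**Figure D3:**
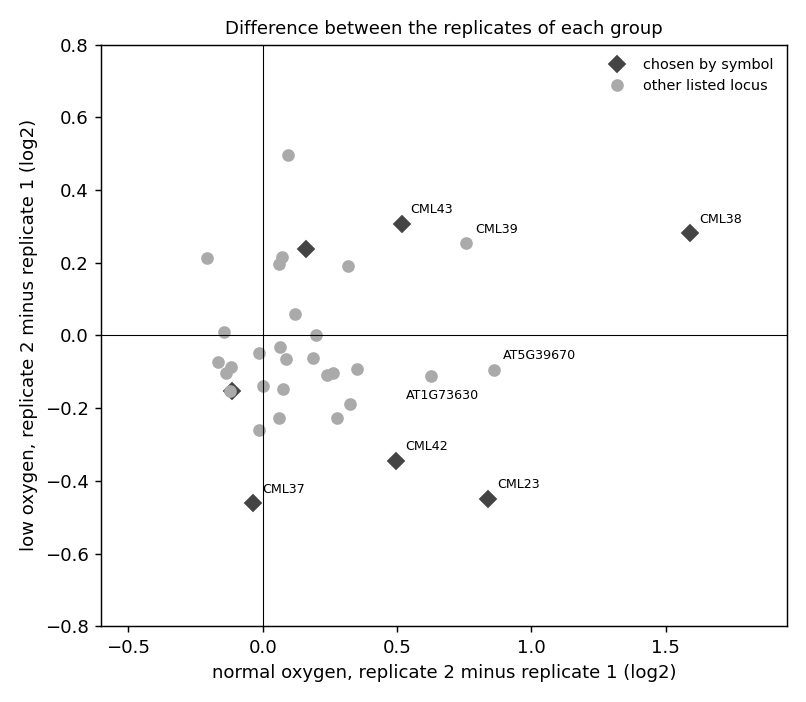
Difference between replicate 2 and replicate 1 at normal oxygen (horizontal axis, log2) and at low oxygen (vertical axis, log2) for the 35 measured calmodulin-like loci, with diamonds for the 7 chosen by symbol. CML38 lies farthest out, at 1.59 on the horizontal axis, whereas no locus passes 0.5 in size on the vertical axis.

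Few other genes of calcium signalling were measured by name. Of the 41 listed channels, pumps and exchangers of calcium transport none was, and the same holds for the calmodulin, CPK, CBL and CIPK families by locus. Measured by name here means that a probe set was assigned to exactly that gene, and 8730 probe sets were not listed with a gene. Whether some of those measure the missing genes was not tested, so the arrays need not lack them. Of the 11 listed calmodulin-binding regulators and enzymes 3 were measured, and 1 rose, where 15.8% of all probe sets did: AT1G67310 went from 7.99 and 7.80 to 8.55 and 8.84 (change 0.80, SE 0.13, adjusted p = 0.0041). AT4G16150 differed by 0.21 (adjusted p = 0.2106) and AT3G16940 by 0.06 (adjusted p = 0.7434). Of the 13 listed targets of these kinases only AT1G19230 was measured, and it fell, where 17.6% of all probe sets did. This gene went from 7.31 and 6.99 to 5.87 and 6.23 (change -1.10, SE 0.16, adjusted p = 0.0022).

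Of the 18 listed related kinases (CDPK-related and SnRK2 kinases) 5 were measured, with 1 higher, 2 lower and 2 that did not pass, where 33.4% of all probe sets passed. AT5G24430 went from 8.18 and 8.30 to 8.86 and 8.99 (change 0.68, adjusted p = 0.0029). AT1G49580 went from 8.69 and 8.48 to 7.77 and 7.78 (change -0.82, adjusted p = 0.0016). AT3G19100 fell by 0.44 (adjusted p = 0.0468), which no longer passed once low oxygen replicate 1 (-0.34, adjusted p = 0.2274) or normal oxygen replicate 1 was left out (-0.29, adjusted p = 0.1867). The call was also lost, with a change about as large or larger in size, with median centring (-0.42, adjusted p = 0.0519) and without low oxygen replicate 2 (-0.53, adjusted p = 0.0866). None of these 5 changes reached 1 in size.

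Markers of tissue and cell type also differed between the groups. PYK10, which encodes a root beta-glucosidase of ER bodies and was the only 1 of 5 root markers measured, was at 13.41 and 13.66 at normal oxygen and at 12.84 and 12.90 at low oxygen (adjusted p = 0.0049). Of 5 root hair markers 3 were measured, and all 3 fell, where 17.6% of all probe sets did: EXPA18 had a change of -3.53, EXPA7 of -2.505 and AT4G26010 of -1.28. Their summed linear level was 9218 and 8494 at normal oxygen and 3204 and 2634 at low oxygen. RCA, Rubisco activase, was the only 1 of 6 shoot markers measured, and its linear level was 138 and 111 at normal oxygen and 283 and 331 at low oxygen (adjusted p = 5.9e-04). The part of these differences in the changes of the calmodulin-like genes was not tested, and in whole roots fewer cells of a type and less RNA per cell cannot be told apart.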

How the data were processed

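Per the labels, biotinylated cRNA was made from 7 ug of total RNA for each array. The deposited values are log2 expression values between 2.95 and 13.99 for 22810 probe sets. The submitters' processing notes list RMA and limma with no version, and the genome build is not given in the sources used here. RMA brings the probe intensities of all arrays to the same distribution and so hides any shift common to every transcript. Array medians lay between 6.33 and 6.37. Over probe sets Pearson's r was 0.9958 for the normal oxygen pair, 0.9962 for the low oxygen pair and 0.9446 to 0.9489 across groups.

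Gene names came from the platform's probe table and were brought up to date by gene identifier with the RefSeq table of TAIR10.1. Leaving out 64 controls, 22746 probe sets were tested, of which 13513 had 1 gene, 503 several and 8730 were not listed. Of several probe sets of a gene, that with the highest mean was used. Low minus normal oxygen was tested in limma 3.58.1 (R 4.3.3, default eBayes prior, 2-sided, no block), which had 2 residual and 4.63 prior degrees of freedom. P-values were adjusted by Benjamini-Hochberg over all 22746, and intervals are 95% intervals of this fit. The number of arrays limits the precision, and the median SD within groups was 0.104 (log2). Alternatives varied the prior, normalization, block, level filter, threshold, probe set choice and arrays.

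The genes and lists were chosen with earlier results of these data known. The family list had 127 loci, of which 91 carry the same name in the RefSeq table as symbol or synonym. The rest were all calmodulin-like loci, 31 with a locus code only and 5 with another symbol. Of the 50 calmodulin-like loci, 8 had the same symbol and 6 the same name as a synonym. By rule every gene past the threshold could be named, with CML38, its sisters and up to 4 examples per pathway list. The 28 loci outside the symbol rule were brought into the account, and their alternatives added, after the rule had found only 7 genes. Sequences were not used here.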

Additional observations from a re-analysis of the deposited data

How the results depend on the processing

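The 4 calls among the 7 genes (2 higher, 2 lower) became 2, CML38 and CML37, at an adjusted p under 0.01 and also with a log2 change of at least 1, and lay between 2 and 5 when each array was left out, where a group's single array is taken to vary like the other group. The prior and both normalizations gave 4 calls. A minimum level of 6 left 4 genes tested and 3 called, where 6668 of the 13068 probe sets left were called. Averaging of probe sets also gave 4 calls, but it could not change the values of these genes, each with a single probe set. It is still counted among the alternatives below. CML38 ran from 4.58 to 6.17 and CML37 from 1.85 to 2.31, and both passed under each alternative that tested them (10 and 9). The direction of small changes depended on the arrays: leaving out each in turn, CML41 ran from -0.153 to 0.001, CML23 from -0.624 to 0.214, AT1G18210 from -0.099 to 0.068 and AT5G04170 from -0.043 to 0.004. Without low oxygen replicate 2, CML23 was at 0.019 and AT1G18210 at 0.022, and with median centring AT1G18210 was at 0.001. The 10 calls among the other 28 loci became 6 with a log2 change of at least 1 and ran from 8 to 12 without each array. Over all probe sets 7593 calls became 2385 with that condition and ran from 5375 to 7001 without each array. With the replicate number as a block, 3 of the 7 genes passed (2 higher, 1 lower), CML42 no longer (-0.61, adjusted p = 0.1085). Of all 22746 probe sets 6939 passed with the block, and 5062 at an adjusted p under 0.01 in the fit without it. Among the 28 loci 9 passed with the block, AT3G59440 no longer (adjusted p = 0.0915), and nor did AT3G19100 (0.0936). The numbers do not pair the samples by any label, and the deviations of same-numbered arrays correlated at 0.024 over probe sets. Values below about 6 carry no detection call, which limits CML37, CML30 and CML41.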
